A study of Mus musculus with 8 samples.

Results

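The genes of fatty acid uptake, carnitine transfer and beta oxidation in mitochondria and peroxisomes were followed in the brown fat of 8 mice, all males of strain C57BL/6J. The list held 33 genes named for their function, and for each the single-symbol probe set of highest mean over all arrays was taken. Such a probe set was found for 32 of the 33, and all 32 were among the 13223 genes tested, out of 22180 genes with a single-symbol probe set. Cpt1b, the muscle and brown fat form of the outer carnitine palmitoyltransferase, had only a probe set shared with 2 other symbols, so no value is given for it. Total RNA of 1 mouse per array was measured on Affymetrix Mouse Gene 2.0 ST arrays, with 3 arrays labelled wild type (WT) and 5 labelled Abhd15 KO (the KO-labelled arrays), a deletion of the alpha/beta hydrolase gene Abhd15. All 8 mice shared the strain, the sex, a chow diet, an overnight fast and 1 h of refeeding, at a stated age of 14 weeks. The part of Abhd15 that was deleted, and whether it was deleted in all tissues, are not given in the sources used here. The comparison asks whether the transcripts of fat burning differ between mutant and control brown fat after a short meal.

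Brown fat burns fatty acids to make heat. Long-chain fatty acids enter the cell and are carried by binding proteins, are joined to coenzyme A, cross the mitochondrial membranes as carnitine esters and are shortened in the matrix by repeated cycles of dehydrogenation, hydration, a second oxidation and thiolysis. The first enzymes for long chains sit on the inner membrane and those for shorter chains are soluble in the matrix, and the electrons of the first oxidation pass through the electron transfer flavoprotein to the respiratory chain. Peroxisomes shorten very long and branched chains and dicarboxylic acids with enzymes of their own and pass the products to mitochondria. Several genes of both compartments are known targets of the fatty acid receptor PPAR alpha and rise on fasting in liver.

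The tissue carried brown fat transcripts in every array, with 11 of 12 brown adipocyte markers represented and all 11 above the dim limit of 2.88 log2 throughout. Ucp1, whose product uncouples respiration to release heat, read between 12.51 and 12.89 log2. Abhd15 was not lower in the KO-labelled arrays (WT mean 6.01 ± 0.19 log2, SD, n = 3, against 6.12 ± 0.27, SD, n = 5), and the directions given here therefore follow the labels alone. WT replicate 2 and Abhd15 KO replicate 1 stood apart from the others: Angptl8, a feeding-induced regulator of lipoprotein lipase, read 7.95 and 7.90 there and at least 10.42 in the other 6 arrays. Skeletal muscle transcripts also differed between the arrays. All 28 muscle markers had a probe set and 22 were above the dim limit in every array, and their summed level ranged from 10.59 to 13.44 log2 in WT and from 9.98 to 12.63 in the KO-labelled arrays. In tissue RNA, fewer cells of a type and less RNA per cell cannot be told apart.

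No gene of fatty acid oxidation passed the test between the labels. With limma 0 of 32 passed an adjusted p of 0.05 (the smallest adjusted p was 0.9997), as did 0% of all tested genes. Of the 32 genes 13 were higher and 19 lower in the KO-labelled arrays, with a median difference of −0.03 log2, beside 6837 higher, 6386 lower and a median of 0.01 over all tested genes. At an unadjusted p under 0.05 there was 1 of 32 genes, the acyl-CoA dehydrogenase Acad10, which is 3.13% beside 3.99% of all tested genes. The groups did not overlap in 1 gene, the matrix thiolase Acaa2, again 3.13% beside 2.77% of all tested genes. Both shares lie near those of all genes. The differences ran from −0.37 for Ehhadh to 0.15 for Fabp3. The 95% confidence intervals reached a median of 0.29 log2 to each side, from 0.21 for Acaa2 to 0.70 for Ehhadh, and a median of 0.36 over all tested genes. These intervals are unadjusted, so they are not the detection limit of the adjusted test.

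**Figure D1:**
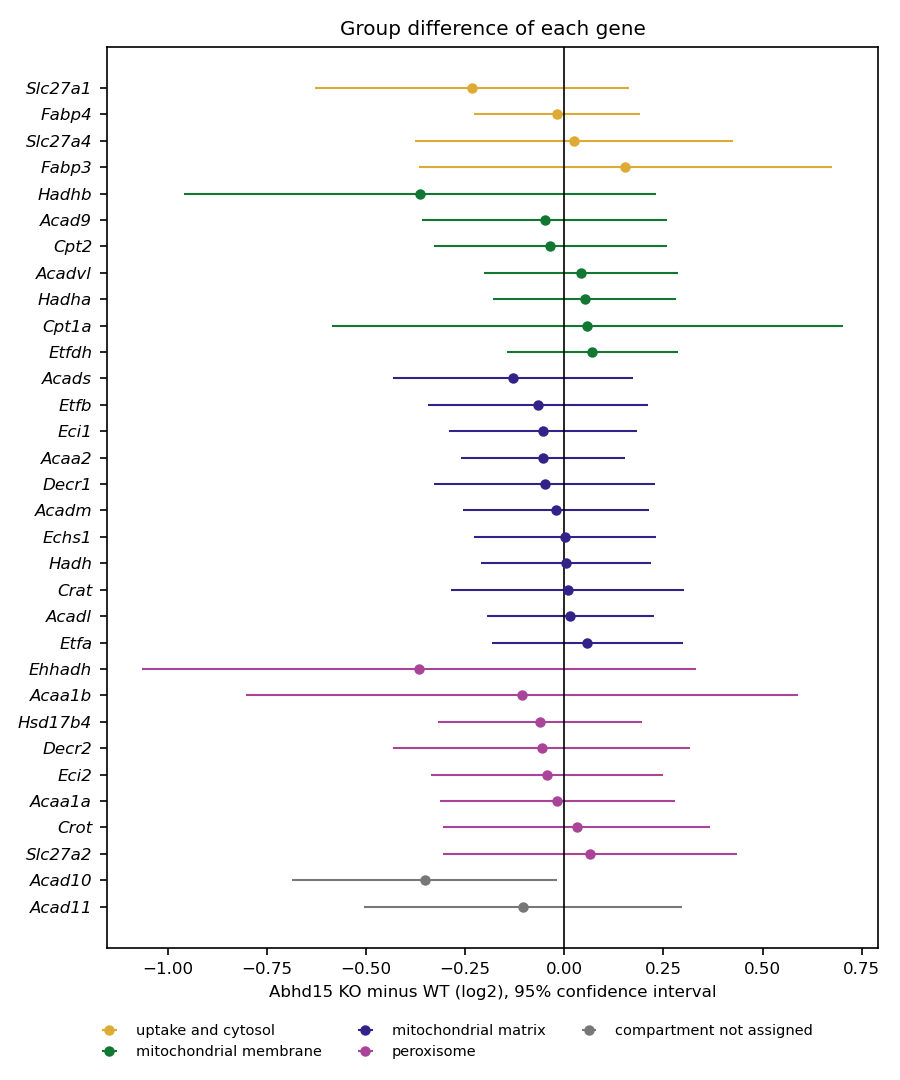
Difference of Abhd15 KO minus WT in log2 units (horizontal axis) for each of the 32 genes (rows), with the 95% confidence interval of the limma fit as a bar and the compartment as colour. All intervals cross 0 except that of Acad10 (−0.69 to −0.02), which is not adjusted for the number of genes.

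Of the uptake and binding genes, Fabp4 and Slc27a4 had differences near 0, and Slc27a1 and Fabp3 had larger ones that did not pass the test. Fabp4, the fatty acid binding protein of adipocytes, read 12.62, 12.70 and 12.64 log2 in WT replicates 1 to 3 and 12.61, 12.64, 12.70, 12.63 and 12.58 in Abhd15 KO replicates 1 to 5. The 8 values lie within 0.12 log2 of each other, and the difference was −0.02 (95% confidence interval −0.23 to 0.19). The highest value of the whole table was 13.28, so Fabp4 sits near the top of the scale, where arrays respond less than in proportion. Slc27a1, a fatty acid transport protein with acyl-CoA synthetase activity, read 9.77, 9.88 and 9.45 in WT and 9.81, 9.62, 9.52, 9.29 and 9.12 in the KO-labelled arrays. The groups overlapped, with the lowest 2 values in Abhd15 KO replicates 4 and 5, and the difference was −0.23 (−0.63 to 0.16, exact two-sided permutation p = 0.268). Slc27a4, another transport protein of this family, differed by 0.02 (−0.38 to 0.43).

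Fabp3, the fatty acid binding protein of heart, muscle and brown fat, varied more widely, and its slope on the muscle transcripts did not pass the adjusted threshold. It read 5.99, 6.49 and 6.80 in WT and 6.33, 6.96, 6.91, 6.22 and 6.49 in the KO-labelled arrays, a 1.96-fold range in which the labels overlapped in part (difference 0.15, −0.37 to 0.67). The mean of the 28 muscle genes, each taken relative to its own mean, was 1.69, 0.49 and −1.17 in WT and −0.08, −1.72, −0.31, 0.89 and 0.21 in the KO-labelled arrays. WT replicate 1, highest in muscle transcripts, was lowest in Fabp3, and Abhd15 KO replicate 2, lowest in muscle transcripts, was highest in Fabp3. In a limma fit with the group and the muscle mean as terms the Fabp3 slope was −0.29 log2 per log2 of muscle mean (95% confidence interval −0.44 to −0.13), with an unadjusted p of 0.00271 from limma and an adjusted p of 0.296. With that term in the fit the group difference of Fabp3 was −0.0012. Of all 13195 genes tested for this slope 0.364% passed, all 48 of them with positive slopes, and 0 of the 32 fatty acid oxidation genes did. The 48 fell to 14 without WT replicate 3, 15 without WT replicate 1, 24 without Abhd15 KO replicate 2 and 26 without Abhd15 KO replicate 4. The replicate block gave 0, but that fit has almost as many terms as arrays, so hardly any gene could pass it. At an unadjusted p under 0.05 with a negative slope there was 1 of the 32, Fabp3 itself, beside 2.70% of all genes. The slopes of 29 of the 32 were below 0, with a median of −0.03, beside 6988 of 13195 below 0 and a median of −0.01 over all genes. A second Fabp3 probe set read between 2.67 and 3.72, close to the dim limit of 2.88, and with the mean of both the slope was −0.14 (limma adjusted p = 0.979). With the replicate number as a block the Fabp3 slope was −0.11, from a fit with almost as many terms as arrays.

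**Figure D2:**
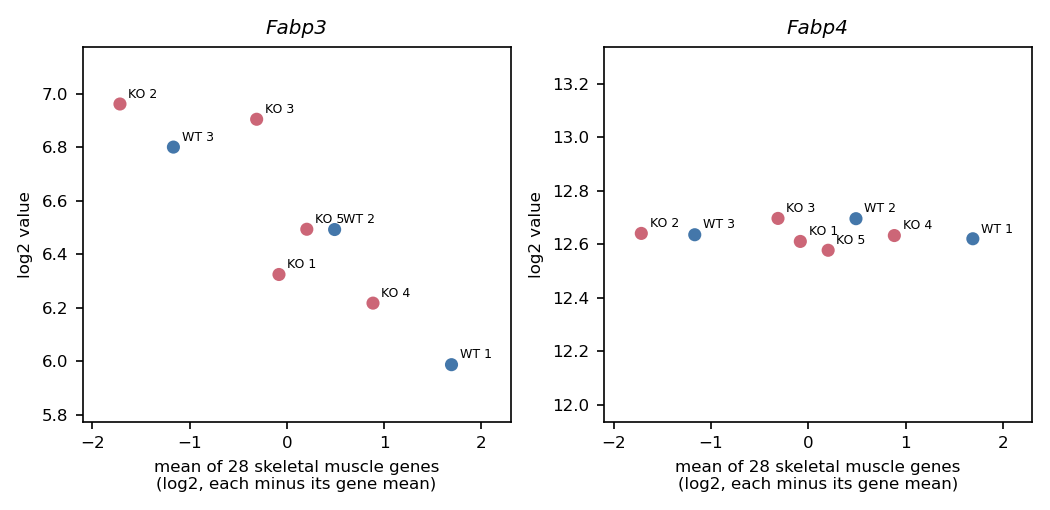
Log2 value of Fabp3 (left) and Fabp4 (right) in each array against the mean of 28 skeletal muscle genes (horizontal axis, log2, each gene relative to its own mean), with WT arrays in blue and arrays labelled Abhd15 KO in red. Fabp3 reads 6.96 at the lowest muscle mean (−1.72) and 5.99 at the highest (1.69), while Fabp4 stays between 12.58 and 12.70.

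Among the carnitine acyltransferases the mice differed within each label, and no difference between the labels passed the test. Cpt1a, the outer membrane enzyme that admits long chains to mitochondria and a known fasting-induced gene of liver, read 5.40, 6.27 and 5.69 in WT and 6.67, 5.63, 5.58, 5.54 and 5.81 in the KO-labelled arrays. WT replicate 2 and Abhd15 KO replicate 1 were the 2 highest arrays, and the other 6 lay between 5.40 and 5.81, so the 2.41-fold range came from these 2 mice of different labels. The difference between the labels was 0.06 (−0.59 to 0.70). It was 0.30 without WT replicate 2, −0.15 without Abhd15 KO replicate 1, −0.14 without WT replicate 1 and 0.10 without both arrays low in Angptl8. Cpt2, the inner membrane enzyme that reforms the acyl-CoA, read 10.22, 10.43 and 10.30 in WT and 10.55, 10.36, 10.27, 10.13 and 10.10 in the KO-labelled arrays. The same 2 arrays were highest, and the difference was −0.03 (−0.33 to 0.26). Crot, which makes carnitine esters of the medium chains that leave peroxisomes, read 8.25 in WT replicate 2 and 8.16 in Abhd15 KO replicate 1 and between 7.70 and 8.12 elsewhere (difference 0.03, −0.31 to 0.37). Crat, the acetyl transferase of the matrix, was highest in Abhd15 KO replicate 1 (11.48) but not raised in WT replicate 2 (11.22), and differed by 0.01 (−0.29 to 0.30).

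The acyl-CoA dehydrogenases, which take the first step of each cycle, were steadiest for Acadl, Acadm and Acadvl and more variable for the others. Acadl, the long-chain enzyme, read between 12.13 and 12.23 in all 8 arrays and differed by 0.02 (−0.19 to 0.23). Acadm, the medium-chain enzyme, read between 12.11 and 12.35 and differed by −0.02 (−0.25 to 0.21). Acadvl, the very long-chain enzyme of the inner membrane, was lowest in WT replicate 2 (10.95) and lay between 11.05 and 11.25 in the other 7 arrays, a difference of 0.04 (−0.20 to 0.29). Acads, the short-chain enzyme, read 10.017, 10.270 and 10.132 in WT and 10.273, 10.100, 10.003, 9.890 and 9.786 in the KO-labelled arrays (difference −0.13, −0.43 to 0.17). Its highest values were again those of WT replicate 2 and Abhd15 KO replicate 1, and the groups overlapped. Acad9, which is also needed to assemble respiratory complex I, read 7.24 and 7.12 in those 2 arrays and between 6.744 and 6.997 in the others (difference −0.05, −0.36 to 0.26).

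Acad10 had the lowest unadjusted p of the 32 genes. It belongs to the acyl-CoA dehydrogenase family and its compartment was not assigned here. It read 6.502, 6.852 and 6.867 in WT and 6.625, 6.582, 6.209, 6.272 and 6.254 in the KO-labelled arrays. WT replicate 1 lay below Abhd15 KO replicates 1 and 2, so the groups overlapped, while Abhd15 KO replicates 3, 4 and 5 were below all WT arrays. The group means were 6.74 ± 0.21 (SD, n = 3) and 6.39 ± 0.20 (SD, n = 5), a difference of −0.35 (−0.69 to −0.02, exact two-sided permutation p = 0.0714, limma adjusted p = 0.9997). The difference stayed between −0.47 and −0.29 when each array was left out in turn. Its relative Acad11, which acts on long chains, read 9.67, 10.29 and 10.02 in WT and 10.22, 9.95, 9.94, 9.74 and 9.60 in the KO-labelled arrays, with its top values in WT replicate 2 and in Abhd15 KO replicate 1 (difference −0.10, −0.50 to 0.30).

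The 2 subunits of the mitochondrial trifunctional protein, which completes the cycle for long chains on the inner membrane, gave probe sets that varied differently. The probe sets also read at unlike levels, with a mean of 11.85 log2 for Hadha and 5.83 for Hadhb. How well the Hadhb probe set reports its transcript was not tested. Hadha, the alpha subunit with hydratase and dehydrogenase activity, read between 11.74 and 11.99 in all 8 arrays and differed by 0.05 (−0.18 to 0.28). Hadhb, the beta subunit with thiolase activity, read 6.20, 6.12 and 5.85 in WT and 5.64, 5.65, 6.16, 6.11 and 4.91 in the KO-labelled arrays. Abhd15 KO replicate 5 was the lowest, and the remaining 7 arrays of both labels lay between 5.64 and 6.20. The group difference was −0.36 (−0.96 to 0.23, exact two-sided permutation p = 0.304), and −0.17 without Abhd15 KO replicate 5. The genes lie head to head in RefSeq assembly GRCm38.p6, with starts 273 bases apart on opposite strands, so that their promoter windows of 300 bases (250 before and 50 after the start) share 228 bases. The Hadha window is shown because it holds the Hadha start and most of the Hadhb window, though not the Hadhb start itself. It is in lower case with the hexamer AGGTCA, the GC box GGGCGG and the box CCAAT on either strand in capitals, 5′ to 3′.
Hadha, chr5:30154931-30155230, minus strand: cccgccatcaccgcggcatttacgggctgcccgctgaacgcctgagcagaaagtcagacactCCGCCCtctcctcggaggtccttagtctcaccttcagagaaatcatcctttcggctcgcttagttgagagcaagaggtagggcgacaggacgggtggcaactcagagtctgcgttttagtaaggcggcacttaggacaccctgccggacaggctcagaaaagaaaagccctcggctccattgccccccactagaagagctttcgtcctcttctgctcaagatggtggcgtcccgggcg
The sources used here do not give the genome build behind the probe sets, and the coordinates are those of the RefSeq window only. Etfdh, the inner membrane oxidoreductase that hands the electrons to ubiquinone, read between 11.44 and 11.53 in WT and between 11.49 and 11.63 in the KO-labelled arrays (difference 0.07, −0.14 to 0.29).

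The soluble matrix enzymes held many of the steadiest genes, and several of these, such as Acadl and Hadh, were also among the brightest. Hadh, the hydroxyacyl-CoA dehydrogenase of short chains, read between 12.04 and 12.18 in all arrays and differed by 0.0035 (−0.21 to 0.22). Echs1, the enoyl-CoA hydratase, differed by 0.0017 (−0.23 to 0.23), and Eci1, the isomerase for double bonds of unsaturated chains, by −0.05 (−0.29 to 0.18). Acaa2, the thiolase that releases acetyl-CoA, read 11.733, 11.795 and 11.732 in WT and 11.730, 11.725, 11.687, 11.648 and 11.707 in the KO-labelled arrays. The groups did not overlap, but the lowest WT value (11.732) and the highest of the other group (11.730) nearly met, and the difference was −0.05 (−0.26 to 0.15, exact two-sided permutation p = 0.0357, where 56 splits allow no p below 0.0179, and limma adjusted p = 0.9997). Decr1, the dienoyl-CoA reductase, read 8.53, 8.78 and 8.76 in WT and between 8.46 and 8.87 in the KO-labelled arrays (difference −0.05, −0.33 to 0.23). The electron transfer flavoprotein subunits Etfa and Etfb differed by 0.06 (−0.18 to 0.30) and −0.07 (−0.34 to 0.21), and Etfa had its low values, 11.00 and 11.09, in WT replicate 2 and in Abhd15 KO replicate 1.

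The peroxisomal set held the 2 genes with the widest range between mice, Ehhadh and Acaa1b, again with the labels overlapping. Ehhadh, the bifunctional hydratase and dehydrogenase that acts on dicarboxylic acids and a textbook target of PPAR alpha, read 9.85, 10.70 and 9.94 in WT and 10.63, 9.96, 9.43, 9.64 and 9.33 in the KO-labelled arrays. WT replicate 2 and Abhd15 KO replicate 1 were the highest arrays, and the other 6 lay between 9.33 and 9.96. The group means were 10.16 ± 0.47 (SD, n = 3) and 9.80 ± 0.52 (SD, n = 5), a difference of −0.37 (−1.07 to 0.33, exact two-sided permutation p = 0.357). It was −0.10 without WT replicate 2, −0.57 without Abhd15 KO replicate 1 and −0.31 without both. Acaa1b, a peroxisomal thiolase, read 5.61, 6.51 and 5.15 in WT and 6.26, 5.67, 5.31, 5.35 and 5.64 in the KO-labelled arrays. Its 2.56-fold range was also set by the high values of WT replicate 2 and Abhd15 KO replicate 1, with the low end in WT replicate 3. The difference was −0.11 (−0.80 to 0.59), 0.27 without WT replicate 2, −0.41 without WT replicate 3 and 0.12 without both arrays low in Angptl8. Its close copy Acaa1a read 6.36, 6.70 and 6.56 in WT and 6.61, 6.35, 6.39, 6.74 and 6.54 in the KO-labelled arrays, highest in Abhd15 KO replicate 4, and differed by −0.02 (−0.31 to 0.28). The transcripts of Acaa1a and Acaa1b are much alike and their probe sets may share signal, so both are uncertain.

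Hsd17b4, the bifunctional enzyme of the branched and very long chain pathway, read 9.77 in WT replicate 2 and 9.70 in Abhd15 KO replicate 1 and between 9.40 and 9.61 in the other arrays (difference −0.06, −0.32 to 0.19). Decr2, the peroxisomal dienoyl-CoA reductase, read 9.38 and 9.46 in these arrays and between 8.78 and 9.32 in the others (difference −0.06, −0.43 to 0.32). Eci2, an isomerase found in peroxisomes and mitochondria, did not share that order. It read 8.25 and 8.28 there, within the 8.12 to 8.57 of the others, and differed by −0.04 (−0.34 to 0.25). Slc27a2, a very long-chain acyl-CoA synthetase of peroxisomes and the endoplasmic reticulum, was highest in Abhd15 KO replicate 3 (11.26) and differed by 0.06 (−0.31 to 0.43).

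**Figure D3:**
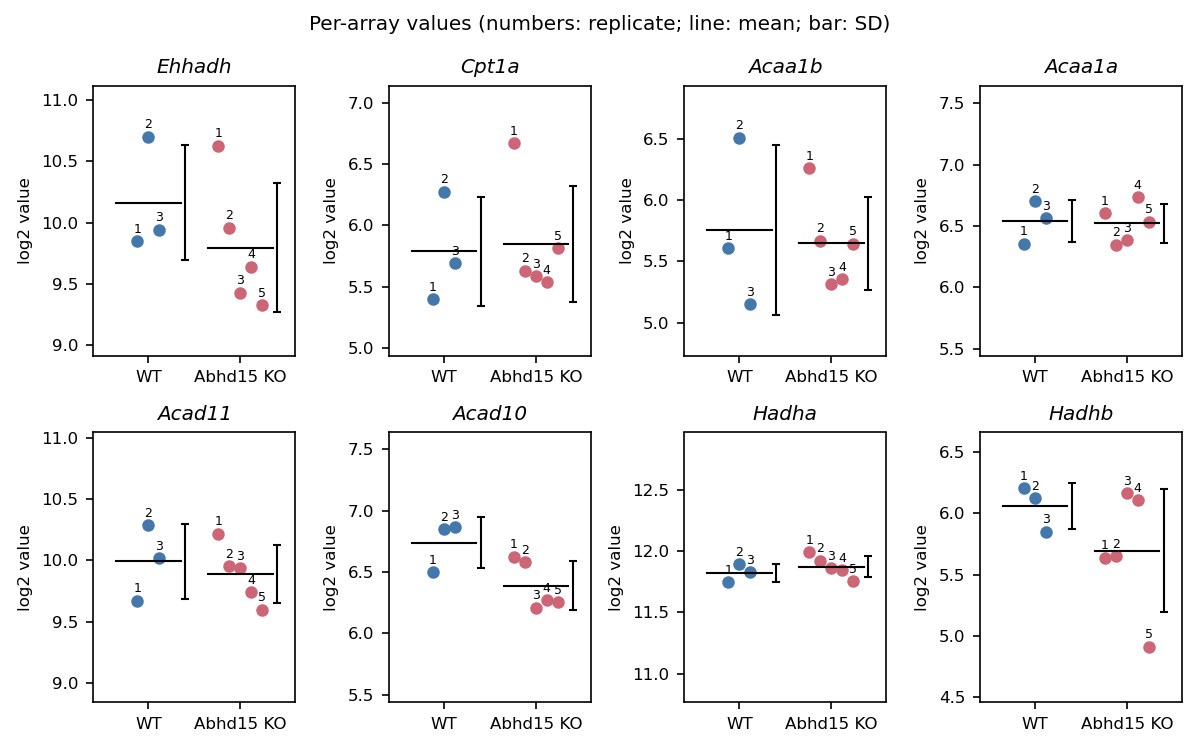
Log2 value of 8 genes in each array (points, numbered by replicate) for WT (blue) and the KO-labelled arrays (red), with the group mean as a line and its SD as a bar, on axes of equal span. In Ehhadh, Cpt1a, Acaa1b and Acad11 the points of WT replicate 2 and Abhd15 KO replicate 1 lie above all others, while Acaa1a, Hadha and Hadhb do not show this order.

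The promoter windows of 3 genes with a wide range between mice, Ehhadh, Acaa1b and Cpt1a, are given beside that of Acaa1a, which did not follow them. They are RefSeq windows of GRCm38.p6, 5′ to 3′, in lower case with the hexamer AGGTCA, the GC box GGGCGG and the box CCAAT on either strand in capitals.
Ehhadh, chr16:21787785-21788084, minus strand: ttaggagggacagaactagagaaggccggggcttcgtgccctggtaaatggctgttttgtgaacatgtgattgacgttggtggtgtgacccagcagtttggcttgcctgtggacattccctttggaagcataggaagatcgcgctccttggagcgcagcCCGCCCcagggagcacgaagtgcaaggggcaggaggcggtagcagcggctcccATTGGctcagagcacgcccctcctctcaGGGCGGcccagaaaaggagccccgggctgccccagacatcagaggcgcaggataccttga
Acaa1b, chr9:119157044-119157343, minus strand: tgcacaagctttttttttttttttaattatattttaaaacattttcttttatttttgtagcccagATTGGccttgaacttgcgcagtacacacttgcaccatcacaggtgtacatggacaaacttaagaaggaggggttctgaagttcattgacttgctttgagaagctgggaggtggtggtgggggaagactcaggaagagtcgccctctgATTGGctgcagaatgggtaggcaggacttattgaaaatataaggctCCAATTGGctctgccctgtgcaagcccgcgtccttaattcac
Acaa1a, chr9:119341044-119341343, plus strand: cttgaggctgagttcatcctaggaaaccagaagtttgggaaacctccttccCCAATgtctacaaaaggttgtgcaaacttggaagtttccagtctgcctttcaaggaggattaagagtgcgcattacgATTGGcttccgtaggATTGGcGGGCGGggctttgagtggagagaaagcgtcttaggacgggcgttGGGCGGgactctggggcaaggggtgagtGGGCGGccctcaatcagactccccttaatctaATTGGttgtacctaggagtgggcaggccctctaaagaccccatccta
Cpt1a, chr19:3323051-3323350, plus strand: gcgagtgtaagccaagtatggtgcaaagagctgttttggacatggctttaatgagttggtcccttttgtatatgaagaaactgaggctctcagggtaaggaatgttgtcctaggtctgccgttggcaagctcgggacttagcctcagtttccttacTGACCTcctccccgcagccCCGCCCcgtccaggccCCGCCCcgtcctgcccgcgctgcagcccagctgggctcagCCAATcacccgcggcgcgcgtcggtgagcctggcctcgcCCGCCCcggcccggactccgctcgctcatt
The windows of Acaa1a and Acaa1b were identical at 167 of 338 aligned positions (49.4%, global alignment with gaps). Unrelated windows were not aligned, so whether this share is above theirs was not tested. The window of Acaa1a held 3 GGGCGG matches and that of Acaa1b held 0, and each held 4 CCAAT matches. Cpt1a held 3 GGGCGG matches, 1 CCAAT and 1 AGGTCA, the hexamer bound by nuclear receptors, and Ehhadh held 2 GGGCGG and 1 CCAAT.

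RefSeq windows were found for 26 of the 33 genes, 28 windows in all, and the same letters were counted in all 32851 windows of that table, which include many of noncoding genes. GGGCGG, the GC box, was present in 75.0% of the windows of fatty acid oxidation genes and in 35.66% of all windows. CCAAT was present in 46.4% and 37.41%, and AGGTCA in 17.9% and 16.26%. The 5 genes with AGGTCA were Slc27a2, Acadm, Echs1, Acadvl and Cpt1a. TATAAA was found in 0 of 28 windows and in 13.62% of all. The DR1 element of PPAR and RXR dimers, a direct repeat of AGGTCA with any 1 base between, was found in 0 of 28 and in 0.04% of all windows, and TCAAGGTCA, the extended site of the estrogen-related receptors, in 0 of 28 and in 0.42%. CACGTG was found in 1 of 28 windows, that of Slc27a1, and in 7.15% of all, and TGACGTCA in 0 of 28 and in 1.79%. Both strands were searched, AGGTCA lies within both longer nuclear receptor motifs, and no match says only that these letters are not in this window.

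Set side by side, the assigned compartments had median differences near 0. The median difference was −0.02 for 11 matrix genes (5 higher, 6 lower), 0.04 for 7 mitochondrial membrane genes (4 higher, 3 lower), −0.05 for 8 peroxisomal genes (2 higher, 6 lower) and 0.0027 for 4 genes of uptake and cytosol (2 higher, 2 lower). The 2 genes with no compartment assigned, Acad10 and Acad11, were both lower, with a median of −0.23. Single arrays moved these medians. The membrane median was −0.09 without Abhd15 KO replicate 1 and −0.08 without WT replicate 1. That of the peroxisomal genes was 0.04 without WT replicate 2 and −0.11 without WT replicate 1, and that of the uptake genes was 0.08 and −0.08 without the same arrays. The residual SD within the labels had its lowest median in the matrix. That median was 0.09 log2 for matrix genes, 0.16 for membrane genes, 0.22 for peroxisomal genes and 0.26 for uptake genes, beside 0.23 over all tested genes. It ran from 0.03 for Acaa2 to 0.51 for Ehhadh. Signal level differed too. Mean levels ran from 8.66 (Decr1) to 12.22 log2 (Acadm) for matrix genes and from 5.69 (Acaa1b) to 10.97 (Slc27a2) for peroxisomal genes. Fabp4, an uptake gene with a mean of 12.64, had a residual SD of 0.04. No test was made of these medians, and the part of signal level in them was not tested.

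The mean of the peroxisomal genes, each taken relative to its own mean, was −0.13, 0.30 and −0.05 in WT and 0.26, 0.02, −0.08, −0.14 and −0.19 in the KO-labelled arrays. That of the membrane genes was −0.08, 0.14 and −0.0023 in WT and 0.18, −0.01, 0.0046, −0.05 and −0.19 in the KO-labelled arrays. In both sets WT replicate 2 and Abhd15 KO replicate 1 were the highest arrays. Their peroxisomal means include the high values of Ehhadh (10.70 and 10.63) and Acaa1b (6.51 and 6.26). The membrane mean of Abhd15 KO replicate 1 includes the high Cpt1a value of 6.67. Abhd15 KO replicate 5 was lowest in both sets, and its membrane mean includes the low Hadhb value of 4.91. The matrix mean was −0.02, 0.01 and 0.06 in WT and 0.08, 0.06, −0.07, −0.05 and −0.06 in the KO-labelled arrays, a narrower span with WT replicate 2 in its middle.

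**Figure D4:**
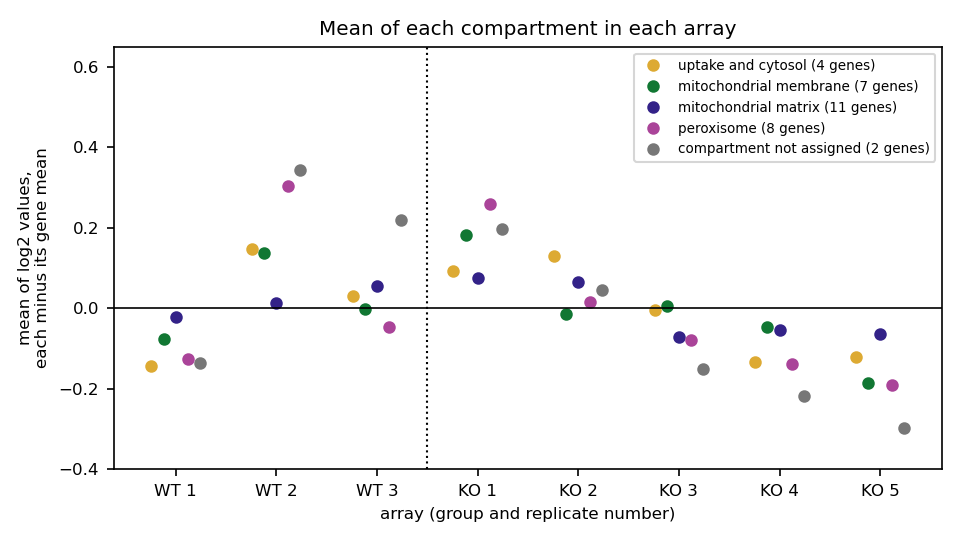
Mean of the log2 values of each compartment's genes, each relative to its own mean over 8 arrays (vertical axis), in each array (horizontal axis), with the compartment as colour. The peroxisomal mean stands at 0.30 in WT replicate 2 and 0.26 in Abhd15 KO replicate 1 and between −0.19 and 0.02 elsewhere, while the matrix mean stays between −0.07 and 0.08.

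The order of the arrays was therefore described gene by gene. In 13 of 32 fatty acid oxidation genes (40.6%) WT replicate 2 and Abhd15 KO replicate 1 both lay above the other 6 arrays, beside 9.60% of all tested genes. These were 5 of 8 peroxisomal genes (Crot, Acaa1b, Decr2, Ehhadh and Hsd17b4), 3 of 7 membrane genes (Cpt1a, Cpt2 and Acad9), 2 of 11 matrix genes (Acads and Decr1), 2 of 4 uptake genes (Slc27a1 and Slc27a4) and Acad11. Both arrays lay below the other 6 in 3 genes (9.38%), all of the matrix (Acadl, Echs1 and Etfa), beside 7.65% of all tested genes. The 2 arrays carry different labels and were singled out by their Angptl8 values, so this is a description of 2 mice with no test. Whether the shares differ between compartments was not tested. Macrophage transcripts were highest in the same arrays, as was Slc4a1, the one erythroid marker with a probe set (0.64 and 1.20 relative to its mean, and at most 0.17 elsewhere). All 12 macrophage markers had a probe set, 11 were above the dim limit in every array (Aif1 was not), and their summed level ran from 9.13 to 9.74 log2 in WT and from 8.65 to 9.45 in the KO-labelled arrays. The mean of the 11 tested, relative to their own means, was 0.45 in WT replicate 2, 0.27 in Abhd15 KO replicate 1 and between −0.54 and 0.10 elsewhere. In 3 of these 11 genes (27.3%) both arrays lay above the other 6, beside 9.60% of all tested genes. The part of macrophage and erythroid transcripts in the result was not tested. The muscle means of these arrays (0.49 and −0.08) lay inside the range of the others, −1.72 to 1.69.

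**Figure D5:**
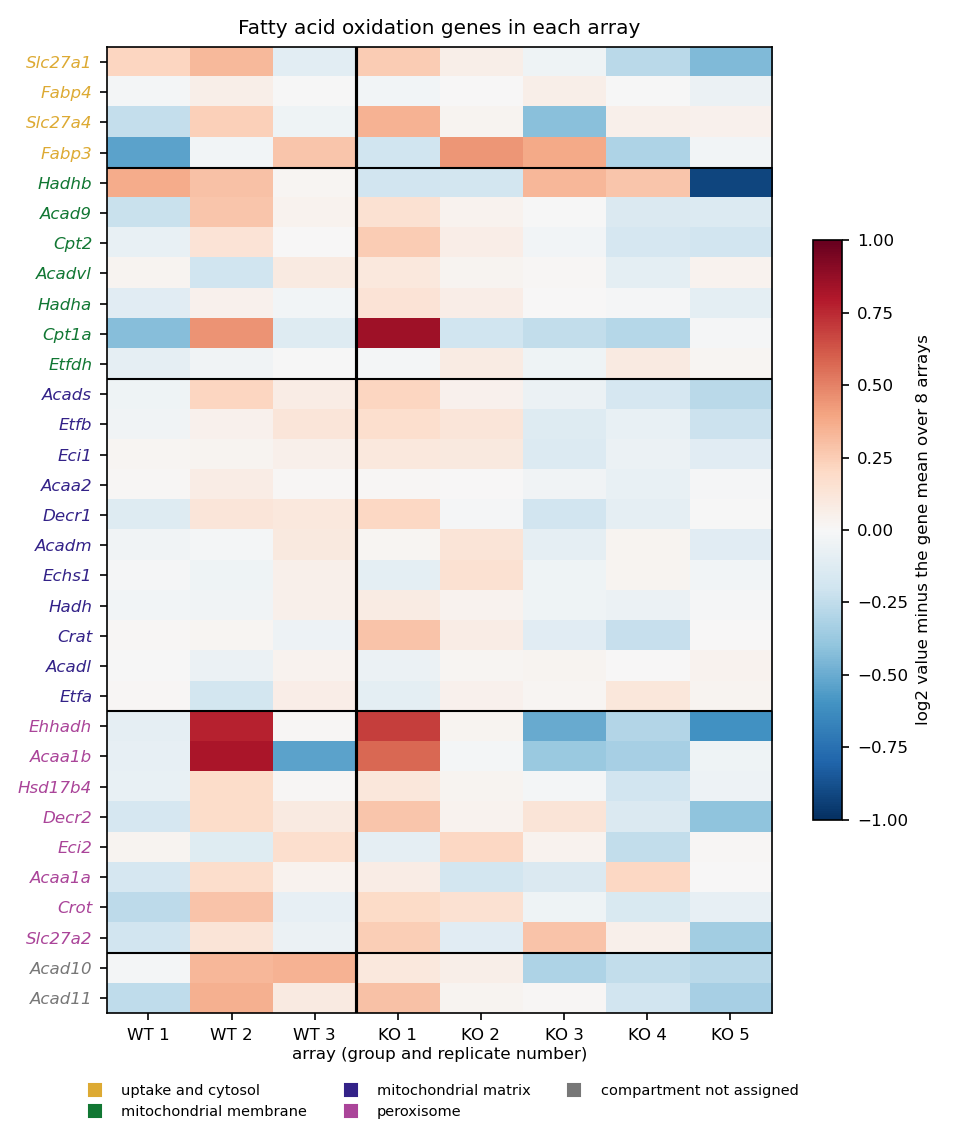
Log2 value of each of the 32 genes (rows, grouped by compartment) in each array (columns) relative to the gene's mean over 8 arrays, as colour from −1 to 1. WT 2 and KO 1 are red in all peroxisomal genes but Eci2 and in Cpt1a, most matrix genes are pale while Crat, Acads and Decr1 are less so, and Hadhb is lowest in KO 5.

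The rest of the pathway did not pass the test either. Of 34 further genes of uptake, peroxisomal oxidation, carnitine supply and ketone bodies 27 were tested, and 0 passed the adjusted threshold of limma or an unadjusted p under 0.05, with 12 higher, 15 lower and a median of −0.01. Abcd2, a peroxisomal transporter of very long-chain acyl-CoA, differed most. It read 8.36, 9.26 and 8.21 in WT and 9.13, 7.92, 7.96, 7.51 and 7.35 in the KO-labelled arrays, a difference of −0.64 (−1.53 to 0.25, exact two-sided permutation p = 0.214), which moved to −0.31 when WT replicate 2 was left out and to −0.93 when Abhd15 KO replicate 1 was. Without both arrays low in Angptl8 it was −0.60, with an unadjusted interval of −1.09 to −0.12 that excludes 0 and a limma adjusted p of 0.9996. WT replicate 2 and Abhd15 KO replicate 1 were above all others in it, and also in its relative Abcd3 (10.54 and 10.45 against 9.88 to 10.16). These 2 were the only ones of the 27 genes with that order (7.41%, beside 9.60% of all tested genes). In 5 genes both arrays were below the others (18.5%, beside 7.65% of all tested genes). These were Scp2, Hsd17b10, Nudt7, Pex11a and Oxct1. Abcd3, Scp2, Hsd17b10, Pex11a and Oxct1 were named after their values were seen.

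Higher in the KO-labelled arrays, without passing, were Nudt7, a peroxisomal hydrolase of coenzyme A (0.20, −0.12 to 0.52), Hacl1, the lyase of alpha oxidation (0.24, −0.18 to 0.67), and Pex5, the import receptor of peroxisomal enzymes (0.14, −0.11 to 0.39). Cpt1c, a brain form of the carnitine enzyme, differed by 0.29 (−0.07 to 0.64) at a WT mean of 3.41, not far above the dim limit. Lower were Acox3, an oxidase of branched chains (−0.11, −0.38 to 0.17), and Mlycd, which degrades malonyl-CoA, the inhibitor of the outer carnitine enzyme (−0.11, −0.43 to 0.21). Acox2 had a mean of 2.85 in the KO-labelled arrays, below the dim limit, so no difference is given.

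Of 15 regulators 8 were higher and 7 lower, with a median of 0.0048 and 0 past either threshold of limma. Ppara, the receptor that drives many of these genes, read 8.37, 8.40 and 8.11 in WT and 8.64, 8.44, 8.10, 8.52 and 8.67 in the KO-labelled arrays (difference 0.18, −0.16 to 0.52). Its coactivators Ppargc1a and Ppargc1b differed by 0.29 (−0.29 to 0.87) and 0.17 (−0.15 to 0.49), and Prkaa2, a catalytic subunit of AMP kinase, by 0.11 (−0.25 to 0.47). Pdk4, the fasting-induced kinase that shuts pyruvate dehydrogenase, read 11.68, 12.19 and 11.25 in WT and 12.07, 11.45, 11.43, 11.38 and 11.27 in the KO-labelled arrays. WT replicate 2 and Abhd15 KO replicate 1 were its highest arrays, and the difference was −0.19 (−0.72 to 0.34). Pdk4 was the only one of the 15 with both arrays above the other 6, beside 9.60% of all tested genes. In 2 of the 15, the receptor Pparg and the AMP kinase subunit Prkaa1, both arrays lay below the other 6, beside 7.65% of all tested genes. Pparg and Prkaa1 were named after their values were seen. Rxra, the partner of PPAR receptors, differed by −0.08 (−0.29 to 0.14), the corepressor Nrip1 by −0.14 (−0.56 to 0.28) and the mitochondrial deacetylase Sirt3 by −0.10 (−0.40 to 0.20).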

How the data were processed

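Brown adipose RNA (200 ng per mouse) of 3 WT and 5 Abhd15 KO arrays was analysed from the deposited table of 41345 probe sets. Its deposited log2 values were made by the authors with RMA and the oligo package per the submitters' processing notes, while the design text per the labels names Expression Console. RMA normalizes quantiles, which removes a shift common to most genes. Array medians lay between 3.00 and 3.04, and arrays correlated at 0.964 to 0.975, so none was a copy. The number of arrays limits the precision. Replicates are 1 mouse per array, and no batch is given in the sources used here.

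Gene symbols came from the platform annotation (23521 with 1 symbol, 1814 with several, 16010 with none), of which 23328 matched RefSeq GRCm38.p6 by Entrez identifier. The brightest single-symbol probe set stood for a gene. The dim limit (2.88) is the 95th percentile over 1400 olfactory and vomeronasal receptor probe sets, and a gene entered the test when 3 arrays or more exceeded it. Tests were made with limma 3.58.1 in R 4.3.3, Benjamini-Hochberg adjusted over all tested genes at 0.05. The muscle slope used group and the muscle mean. For a single gene the 56 splits of the arrays gave an exact permutation p, two-sided and unadjusted. Confidence intervals are unadjusted too. The fits were tested on simulated data.

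The genes and lists were chosen with earlier results of these data known. Named are all 32 measured genes, the 4 of lowest p per direction in each of 2 further lists, and genes that check tissue, label and arrays. Some further genes of these lists are named, after their values were seen, for the order of WT replicate 2 and Abhd15 KO replicate 1. Of the marker lists white adipocyte genes (8 tested) had a median difference of −0.12, endothelial genes (10) 0.11, hepatocyte genes (8) 0.17, brown adipocyte genes (11) −0.03, macrophage genes (11) −0.20, muscle genes (28) −0.54 and erythroid genes (1, Slc4a1) −0.39, with 0 past the adjusted threshold of limma in each. Slc4a1 was not above the dim limit in every array. Alternatives were the replicate block, dim-gene filters, normalization, variance model, array weights, probe set averages, the muscle covariate and leaving out arrays. Same-numbered mice of the 2 labels correlated at −0.258, −0.098 and 0.019 over deviations from their group means. These values gave no sign that the numbers pair the arrays, but so few mice cannot settle it.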

Additional observations from a re-analysis of the deposited data

Results flagged for a closer look

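Cpt1a in the KO-labelled arrays held a value far from the others: replicate 1 read 6.67 log2, and the next highest, replicate 5, read 5.81. It was the only one of 37 sets of 5 values examined (32 genes and 5 compartment means) in which the gap to the nearest array took up so much of the range, and chance marks about 1 in 20 such sets.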

How the results depend on the processing

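Over the 18 alternatives of the group comparison 0 of 32 fatty acid oxidation genes passed the adjusted threshold, and their smallest adjusted p from limma was 0.94. Over the 13 alternatives of the muscle slope 0 of 32 passed. With the replicate block 0 of all genes had a muscle slope past the threshold, against 48 without it. That slope fit has almost as many terms as arrays, so these counts cannot be compared. Under the block the membrane median was 0.0740. No WT array is numbered 4 or 5, so Abhd15 KO replicates 4 and 5 do not enter the group difference of the block fit. The block difference is therefore that of replicates 1 to 3 of each label. No sign was seen that the replicate numbers pair the arrays. The membrane median ranged from −0.0932 to 0.0749 when 1 array was left out. Of the 32 genes 10 kept the sign of their difference in every fit. Under the replicate block, which leaves Abhd15 KO replicates 4 and 5 out of the difference, the sign turned for Cpt2 (0.0763), Acadm (0.00500), Acad9 (0.0313), Acad11 (0.0443), Eci2 (0.0243), Etfb (0.0133), Decr2 (0.110), Hsd17b4 (0.00267). With the muscle covariate it turned for Fabp3 (−0.00119), Crat (−0.00666), Crot (−0.00993), Hadh (−0.0123), Echs1 (−0.0205), Acaa1a (0.000636). Without both arrays low in Angptl8 it turned for Fabp4 (0.00875), Crat (−0.0480), Acadvl (−0.0648), Acad9 (0.0312), Hadh (−0.0320), Acaa1a (0.0413), Acaa1b (0.117), Sirt3 (0.0103). Array weights turned Hadh (−0.00753), Echs1 (−0.00331), Acaa1b (0.00919), quantile normalization turned Crat (−0.0382), Hadh (−0.0342), and median centring turned Echs1 (−0.00173). With 1 array left out in turn, the differences that changed sign ranged from −0.0662 to 0.340 for Fabp3, −0.0352 to 0.00350 for Fabp4, −0.0117 to 0.159 for Slc27a2, −0.0875 to 0.151 for Slc27a4, −0.148 to 0.301 for Cpt1a, −0.102 to 0.0219 for Cpt2, −0.0617 to 0.0671 for Crat, −0.0905 to 0.185 for Crot, −0.0535 to 0.0223 for Acadm, −0.0107 to 0.0388 for Acadl, −0.0428 to 0.102 for Acadvl, −0.175 to 0.0749 for Acad9, −0.263 to 0.0437 for Acad11, −0.0167 to 0.0302 for Hadh, −0.0358 to 0.0280 for Echs1, −0.116 to 0.0284 for Eci2, −0.110 to 0.0623 for Acaa1a, −0.409 to 0.270 for Acaa1b, −0.0181 to 0.110 for Etfa, −0.159 to 0.0384 for Decr2, −0.119 to 0.0106 for Hsd17b4, −0.0466 to 0.220 for Prkaa2, −0.416 to 0.0526 for Pdk4, −0.212 to 0.0202 for Sirt3. Beyond which arrays enter each fit, the cause of these changes was not tested.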

Other observations

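A second single-symbol probe set existed for Crat and Slc27a2 as well as for Fabp3. That of Crat read 5.99, 6.47 and 6.07 log2 in WT and 6.33, 6.39, 6.19, 6.34 and 5.73 in the KO-labelled arrays (difference 0.02, exact two-sided permutation p = 0.893). That of Slc27a2 read 3.71, 4.57 and 4.04 in WT and 4.57, 4.23, 4.42, 3.83 and 4.02 in the KO-labelled arrays (difference 0.11, exact two-sided permutation p = 0.696), with WT replicate 2 and Abhd15 KO replicate 1 highest, which was not so for its brighter probe set.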
